A study of Homo sapiens with 4 samples.

Results

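The WNT feedback and target genes described here are AXIN2, LGR5, NKD1, LEF1, TCF7, SP5, NOTUM, RNF43, ZNRF3 and DKK1, taken by gene symbol. All 10 were listed for every library, among 26364 symbols. The data are 3′-end RNA sequencing of 4 human lung cancer cultures, each with 1 library. EBC-CR1, EBC-CR2 and EBC-CR3 are capmatinib-resistant lines selected from EBC-1 by rising doses that ended at 1.5 µmol/L for EBC-CR1, 2.2 µmol/L for EBC-CR2 and 2.4 µmol/L for EBC-CR3. All 3 lines were then kept in 1 µmol/L capmatinib, an inhibitor of the MET receptor kinase. EBC-1 is their parental line, which carries an amplified MET gene and was not stated to be exposed to the drug. EBC-CR1 was at passages 64 to 66, EBC-CR2 and EBC-CR3 were at passages 81 to 83, and EBC-1 was at passages 35 to 37. Time in culture, exposure to the drug and resistance cannot be told apart. The sources used here do not say whether capmatinib was present at RNA harvest or whether a line is 1 clone.

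WNT proteins bind a Frizzled receptor together with LRP5 or LRP6, which stops a cytoplasmic complex of AXIN, APC and GSK3 from destroying beta-catenin. Beta-catenin then enters the nucleus and binds the DNA-binding factors TCF7, LEF1, TCF7L1 and TCF7L2, which otherwise work with TLE corepressors. Many target genes switched on in this way restrain the pathway again, among them AXIN2, NKD1, NOTUM, DKK1, RNF43 and ZNRF3, so a group of them is commonly read as a gauge of WNT output.

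Levels are log2(x + 1), where x is the deposited normalized value in arbitrary units. The ordered distinct values of a library gave back its whole reads per gene at low levels, with estimated depths of 21.4 M (EBC-CR1), 18.5 M (EBC-CR2) and 22.8 M reads (EBC-CR3), against 36.5 M in EBC-1. A gene listed at 0 had no reads, which allows up to 3 reads, equal to a log2 level of 2.00, 2.00 and 1.81 in the resistant lines and 1.91 in EBC-1 (counting error only). The sample labels and the column headings disagree, since the table of EBC-CR1 is headed as line 3 and that of EBC-CR3 as line 1. Names follow the labels, values over all 3 lines together do not depend on this, and under the headings the values of these 2 lines would trade places.

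All 5 epithelial markers were detected in every library. Of the 7 squamous markers, which check the labelled squamous cell type, the keratins KRT5, KRT6A and KRT14 and PKP1 were listed at 0 in all 4 libraries, and TP63 was at 6.65 (EBC-CR1), 11.32 (EBC-CR2) and 8.43 (EBC-CR3) and listed at 0 in EBC-1. SOX2, another of these markers, was at 9.33 (EBC-CR1), 9.25 (EBC-CR2) and 10.85 (EBC-CR3) against 6.45 in EBC-1. The summed squamous list was between 9.54 and 11.63 in the resistant lines against 6.46 in EBC-1, and its part in the results was not tested. The blood markers HBB, HBA1 and HBA2 were at 13.90, 9.21 and 11.61 in EBC-CR1 and listed at 0 in the other 3 libraries. The summed blood list was at 14.21, 1.46 and 0 in the resistant lines against 0.81 in EBC-1, and its part in the values of EBC-CR1 was not tested. The fibroblast markers DCN and LUM were listed at 0 in every library, and COL1A1 was at 6.64, 6.43 and 7.25 against 5.37 in EBC-1. COL1A2 went the other way, at 0, 0.81 and 1.81 against 2.09 in EBC-1. COL3A1 and PDGFRA were at 0.81 or below in every library. The summed fibroblast list was at 6.65, 6.46 and 7.27 against 5.48 in EBC-1, which is mostly COL1A1.

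The 10 genes did not share 1 direction. In bulk RNA, fewer cells expressing a gene and less RNA per cell cannot be told apart. RNF43, TCF7 and SP5 were at least 2-fold lower in each resistant line than in EBC-1, LEF1 and NKD1 were at least 2-fold higher in each, and ZNRF3 was nearly level. DKK1 was lower in EBC-CR2 alone at that threshold. AXIN2, NOTUM and LGR5, which are widely used readouts of the pathway, stayed at 5 reads or fewer in every library. A floor of 10 units in at least 1 library was passed by 7 of the 10 genes and by 14749 of all symbols, and the other 3 are given by their reads only.

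**Figure D1:**
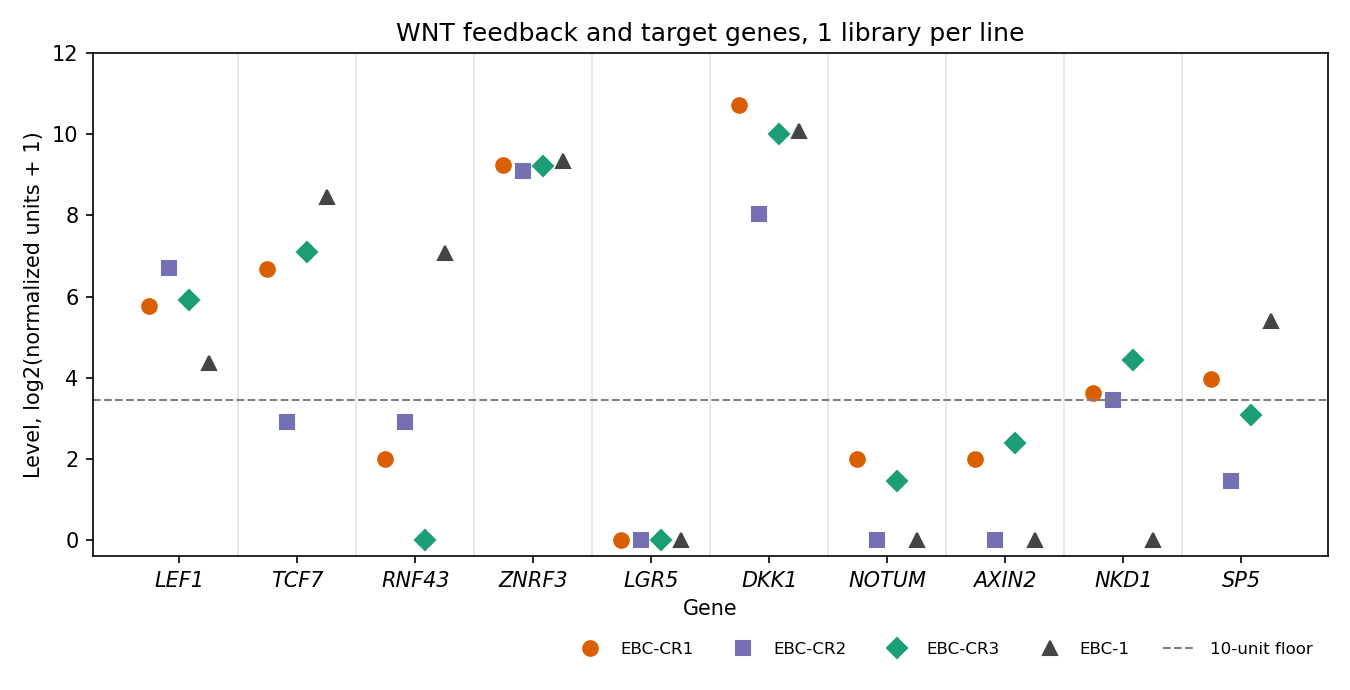
Level of each gene as log2(normalized units + 1) in EBC-CR1, EBC-CR2, EBC-CR3 and EBC-1, with 1 point per library and no error bar because each line has 1 library. The dashed line is the floor of 10 units. RNF43, TCF7 and SP5 sit highest in EBC-1, LEF1 and NKD1 lowest in EBC-1, and LGR5 is at 0 in all 4 libraries.

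RNF43 and ZNRF3 encode sister membrane ubiquitin ligases that take Frizzled receptors off the cell surface and so make a cell less sensitive to WNT. RNF43 was at 2.00 (EBC-CR1), 2.91 (EBC-CR2) and 0 (EBC-CR3), against 7.08 in EBC-1. In reads this was 3, 6 and 0, against 185. All 3 resistant libraries were thus far below EBC-1, and EBC-CR2 and EBC-CR1 did not differ beyond counting error (log2 ratio 1.12, 95% counting interval -1.11 to 3.74). The ratio of units was 44.8-fold lower in EBC-CR1 (log2 -5.48, 95% counting interval -7.77 to -3.91) and 20.7-fold lower in EBC-CR2 (log2 -4.37, interval -5.83 to -3.22), and no fold is given for EBC-CR3, where the gene was listed at 0.

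ZNRF3 was at 9.24 (EBC-CR1), 9.10 (EBC-CR2) and 9.22 (EBC-CR3), against 9.34 in EBC-1. Its log2 ratio was -0.10 in EBC-CR1 (95% counting interval -0.25 to 0.06), -0.24 in EBC-CR2 (-0.41 to -0.07) and -0.12 in EBC-CR3 (-0.28 to 0.03). The lowest of these bounds was -0.41, whereas the log2 difference of RNF43 was -4.17 in EBC-CR2, the line where it was smallest. The difference between the genes was not tested over replicates. ZNRF3-AS1, which overlaps ZNRF3 on the opposite strand, was at 1.46, 3.61 and 0 in the resistant lines and 2.64 in EBC-1, and the sources used here do not say how strand was handled.

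LGR5 encodes a receptor for R-spondins, secreted proteins that remove RNF43 and ZNRF3 from the membrane, and marks stem cells of the gut. It was listed at 0 in all 4 libraries. LGR4, a related receptor, was at 7.46 (EBC-CR1), 8.51 (EBC-CR2) and 7.20 (EBC-CR3) and at 7.60 in EBC-1. RSPO1, an R-spondin, was at 5.43, 5.88 and 6.82 in the resistant lines against 8.21 in EBC-1, a log2 difference of -2.79, -2.34 and -1.39.

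TCF7 and LEF1 encode DNA-binding factors of the same family, both carriers of beta-catenin and both known as targets of it. TCF7 was at 6.69 (EBC-CR1), 2.91 (EBC-CR2) and 7.09 (EBC-CR3), against 8.46 in EBC-1. The ratio was 3.43-fold lower in EBC-CR1 (log2 -1.78, 95% counting interval -2.12 to -1.45), 53.8-fold lower in EBC-CR2 (log2 -5.75, interval -7.20 to -4.62) and 2.58-fold lower in EBC-CR3 (log2 -1.37, interval -1.66 to -1.09). EBC-CR2, with 6 reads, stood apart from EBC-CR1 and EBC-CR3, with 90 and 130 reads. VDAC1, which overlaps TCF7 in RefSeq, was at 12.46, 11.02 and 11.92 against 12.47.

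LEF1 ran the other way. It was at 5.77 (EBC-CR1), 6.71 (EBC-CR2) and 5.91 (EBC-CR3), against 4.36 in EBC-1, or 47, 84 and 61 reads against 23. The ratio was 2.76-fold higher in EBC-CR1 (log2 1.46, 95% counting interval 0.71 to 2.25), 5.33-fold higher in EBC-CR2 (log2 2.42, interval 1.74 to 3.15) and 3.04-fold higher in EBC-CR3 (log2 1.60, interval 0.89 to 2.36). EBC-CR2 thus had the highest LEF1 and the lowest TCF7 of the 4 libraries. LEF1-AS1, an overlapping antisense gene, was at 1.46, 2.91 and 0 against 0.

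SP5 encodes a zinc-finger repressor that is a direct target of beta-catenin in several tissues. Its level was 3.98 (EBC-CR1), 1.46 (EBC-CR2) and 3.09 (EBC-CR3), against 5.39 in EBC-1, from 13, 2 and 9 reads against 51. The ratio was 2.78-fold lower in EBC-CR1 (log2 -1.47, 95% counting interval -2.48 to -0.58), 23.4-fold lower in EBC-CR2 (log2 -4.55, interval -7.63 to -2.62) and 5.47-fold lower in EBC-CR3 (log2 -2.45, interval -3.66 to -1.41). All 3 resistant libraries were below EBC-1, and the wide intervals come with the few reads.

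DKK1 encodes a secreted protein that blocks LRP5 and LRP6. It was at 10.73 (EBC-CR1), 8.02 (EBC-CR2) and 10.00 (EBC-CR3), against 10.09 in EBC-1. EBC-CR2 was 4.19-fold lower (log2 -2.07, 95% counting interval -2.29 to -1.85), EBC-CR1 was 1.56-fold higher (log2 0.64, interval 0.54 to 0.75), and EBC-CR3 had a log2 ratio of -0.08 (interval -0.20 to 0.03). The resistant lines lay on both sides of EBC-1.

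NKD1 encodes a cytoplasmic antagonist that binds Dishevelled, and AXIN2 a scaffold of the destruction complex. NKD1 had 10 (EBC-CR1), 9 (EBC-CR2) and 23 reads (EBC-CR3), a log2 level of 3.61, 3.46 and 4.44, and was listed at 0 in EBC-1. AXIN2 had 3, 0 and 5 reads in the resistant lines and 0 in EBC-1. NOTUM, a secreted enzyme that strips the lipid from WNT proteins, had 3, 0 and 2 reads and again 0 in EBC-1. In reads, the NOTUM values and those of AXIN2 in EBC-CR1 and EBC-CR2 lay within the 3 that a count of 0 allows. As levels, both genes in EBC-CR1 were at 2.00, just above the 1.91 that 3 reads equal in the deeper EBC-1 library. Both were below the floor, and no difference was called. The 5 AXIN2 reads of EBC-CR3 lay above the limit of 3 reads, below the floor and with no test.

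**Figure D2:**
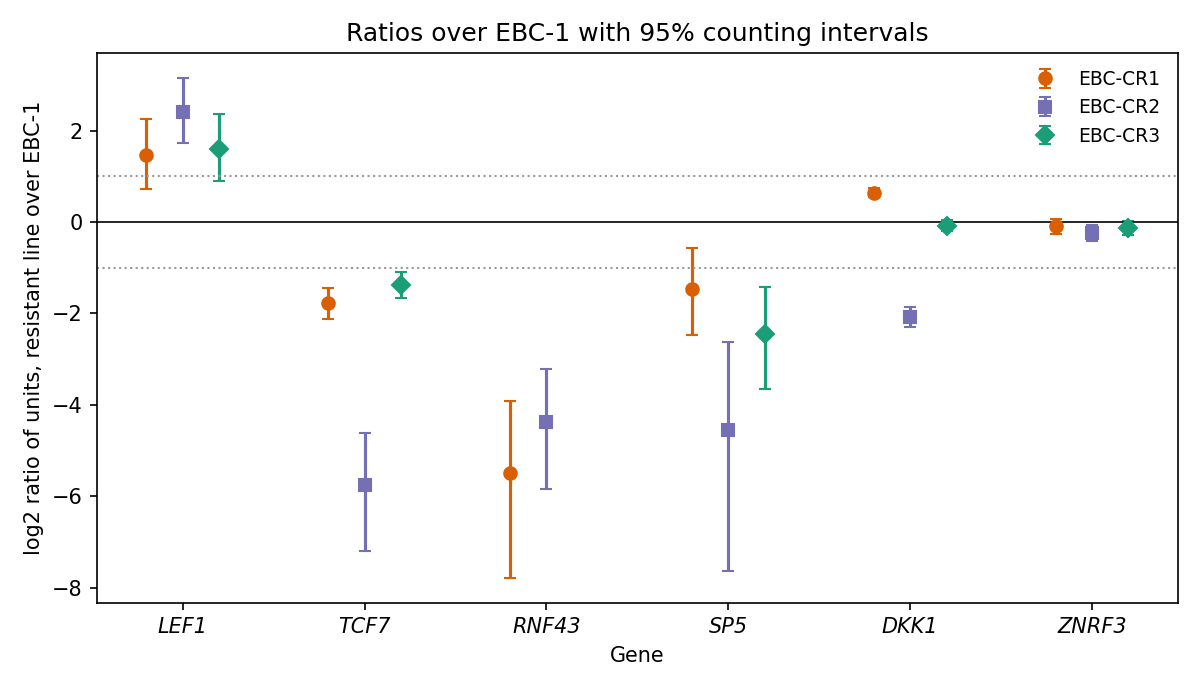
Log2 ratio of normalized units of each resistant line over EBC-1 for 6 genes, with bars for the 95% counting interval, which holds no variation between cultures. Dotted lines mark 2-fold. RNF43 has no point for EBC-CR3, where it was listed at 0, and NKD1 is left out because it was listed at 0 in EBC-1.

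NKD1 passed the floor only through the resistant lines, with 11.25, 10 and 20.75 units against 0 in EBC-1, and RNF43 only through EBC-1, with 3, 6.5 and 0 units against 134.25. The floor thus let each in through the group where it was high, so the counts below describe the genes and are not support for a pattern among them. Beside all genes, 2 of the 7 genes past the floor were at least 2-fold higher in all 3 resistant lines, NKD1 and LEF1, where 6.79% of all genes were. In the other direction 3 of the 7 were at least 2-fold lower in all 3, RNF43, TCF7 and SP5, where 5.33% of all genes were. Without EBC-CR1, the library with the blood transcripts, these counts were also 2 and 3. Leaving out a line can keep or raise such counts but not lower them, so this was no check on the blood transcripts. The 3 comparisons share the EBC-1 library. In EBC-CR1 the counts were 2 higher and 3 lower, beside 13.6% and 14.3% of all genes, or 27.9% either way. In EBC-CR2 they were 2 higher and 4 lower, beside 16.9% and 18.4%, or 35.2% either way. In EBC-CR3 they were 2 higher and 3 lower, beside 16.1% and 16.4%, or 32.5% either way. The median log2 difference of the 7 genes was -0.10, -2.06 and -0.12, and over all genes it was -0.06, -0.06 and -0.07.

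Taking the 3 resistant lines as replicates of 1 phenotype, 0 of the 7 genes passed limma with Benjamini-Hochberg adjustment over all 14749 genes, where 0.176% of all genes rose and 0.00678% fell. At an unadjusted p under 0.05 there were 3, RNF43, NKD1 and LEF1, beside 10.6% of all genes. RNF43 averaged 1.64 ± 1.49 in the resistant lines (SD, n = 3) and 7.08 in EBC-1 (n = 1), a log2 fold of -5.44 ± 1.45 (SE; limma adjusted p = 0.338). NKD1 averaged 3.84 ± 0.53 in the resistant lines against 0 in EBC-1, with a limma adjusted p = 0.360. Both NKD1 and RNF43 entered this fit through 1 group alone, and NKD1 was not tested at a floor of 50 units. LEF1 averaged 6.13 ± 0.51 against 4.36, a log2 fold of 1.78 ± 0.66 (SE; limma adjusted p = 0.462). The limma adjusted p was 0.619 for TCF7, 0.551 for SP5, 0.888 for DKK1 and 0.894 for ZNRF3. The model has 2 residual degrees of freedom and takes the lone EBC-1 library to vary like the resistant lines. It draws the variance of each gene toward a trend over all genes, so SE and p do not rest on the gene's own spread alone. The spread it uses is between these 3 lines and holds no repeat cultures of a line.

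Over all genes, the 2 comparisons that hold EBC-CR2 had larger shares past 2-fold than the one without it. The counts of the 7 genes were also larger in those 2 comparisons. EBC-CR2 differed from EBC-CR1 at least 2-fold in 3 of the 7 genes, TCF7, SP5 and DKK1, all lower in EBC-CR2, beside 32.4% of all genes. For these the log2 ratio of units was -3.97 (95% counting interval -5.46 to -2.79), -3.08 (-6.27 to -0.93) and -2.71 (-2.93 to -2.50). EBC-CR3 differed from EBC-CR2 in 4 of the 7, beside 27.9% of all genes. TCF7, SP5 and DKK1 were higher in EBC-CR3, with log2 ratios of 4.38 (interval 3.22 to 5.85), 2.10 (-0.17 to 5.35) and 1.98 (1.76 to 2.21), and RNF43 was lower at 0 reads against 6. EBC-CR3 differed from EBC-CR1 in 1 of the 7, RNF43 at 0 reads against 3, beside 15.7% of all genes. The SP5 interval of EBC-CR3 over EBC-CR2 included 0, and the 3 RNF43 reads of EBC-CR1 lay at the limit that a count of 0 allows.

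The order of levels over the lines was read with these intervals. For TCF7 the order was EBC-1, EBC-CR3, EBC-CR1 and EBC-CR2, with EBC-CR3 and EBC-CR1 barely apart (log2 ratio 0.41, 95% interval 0.01 to 0.81). For SP5 it was EBC-1, EBC-CR1, EBC-CR3 and EBC-CR2, where EBC-CR3 did not differ from EBC-CR1 or EBC-CR2 beyond counting error. For LEF1 the order was EBC-CR2, EBC-CR3, EBC-CR1 and EBC-1, and its neighbours EBC-CR3 and EBC-CR1 did not differ beyond counting error (log2 ratio 0.14, 95% interval -0.43 to 0.72). For DKK1 the order was EBC-CR1, EBC-1, EBC-CR3 and EBC-CR2, with EBC-CR3 and EBC-1 not distinguishable. NKD1 had its highest level in EBC-CR3, whose interval against EBC-CR1 included 0 (log2 ratio 0.88, -0.24 to 2.12). For ZNRF3 the 3 resistant lines were not distinguishable from one another by counting error.

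Promoter windows of 250 bases before the start were available in the RefSeq table (GRCh38.p14) for 5 of the 10 genes, SP5, LEF1, TCF7, DKK1 and RNF43, in 7 windows. AXIN2, LGR5, NKD1, NOTUM and ZNRF3 were not matched. The core of the TCF and LEF binding site was searched on both strands as CTTTGA and its reverse complement TCAAAG, which do not overlap each other. SP5 held 3 matches, beginning 147, 109 and 83 bases before the start, and DKK1 held 2, beginning 149 and 95 bases before it. The windows of LEF1, TCF7 and RNF43 held no such letters. Of 35116 windows of this length, 11.2% held at least 1 match, 0.977% held 2 or more and 0.0655% held 3 or more. A match is a description and not a binding site. The windows of SP5 and DKK1 are shown because they hold the matches, given in capitals. RNF43 is added because this gene had the lowest levels relative to EBC-1 in EBC-CR1 and EBC-CR3. It had 2 windows, and the one farther upstream is shown. All run 5′ to 3′ on the strand of the gene.
SP5, chr2:170715087-170715336, + strand: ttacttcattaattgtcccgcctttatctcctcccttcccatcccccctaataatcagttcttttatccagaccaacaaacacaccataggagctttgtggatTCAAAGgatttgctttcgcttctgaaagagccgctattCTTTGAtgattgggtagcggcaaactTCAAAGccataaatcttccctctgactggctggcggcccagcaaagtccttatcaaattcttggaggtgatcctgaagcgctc
DKK1, chr10:52314031-52314280, + strand: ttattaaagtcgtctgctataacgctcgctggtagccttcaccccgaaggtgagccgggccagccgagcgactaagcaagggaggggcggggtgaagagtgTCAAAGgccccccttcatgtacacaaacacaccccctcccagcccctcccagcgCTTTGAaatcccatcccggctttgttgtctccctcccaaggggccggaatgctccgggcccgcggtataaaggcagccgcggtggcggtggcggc
RNF43, chr17:58417535-58417784, - strand: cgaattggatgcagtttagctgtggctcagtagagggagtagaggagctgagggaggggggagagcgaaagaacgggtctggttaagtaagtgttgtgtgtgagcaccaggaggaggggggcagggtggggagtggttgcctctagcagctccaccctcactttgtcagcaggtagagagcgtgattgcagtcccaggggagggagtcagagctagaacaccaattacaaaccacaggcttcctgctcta

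The genes on either side of RNF43, TCF7 and LEF1 were looked up by gene order in RefSeq after the values were seen. Next to RNF43 on chromosome 17, SUPT4H1 was at 11.88 (EBC-CR1), 11.52 (EBC-CR2) and 11.86 (EBC-CR3) against 11.91 in EBC-1, and MTMR4 on the other side was at 9.15, 8.25 and 9.85 against 8.68. Over the 10 nearest measured genes the log2 differences spanned -0.93 to 1.13 (EBC-CR1), -2.03 to -0.40 (EBC-CR2) and -1.02 to 1.17 (EBC-CR3), where RNF43 was at -5.08, -4.17 and -7.08. The difference at RNF43 was thus larger than that of any of the 10 neighbours, although all 10 were below EBC-1 in EBC-CR2 and only 4 of the 10 differed less than 2-fold in all 3 lines.

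Beside TCF7 on chromosome 5, VDAC1 had log2 differences of -0.02, -1.45 and -0.55 and SKP1 of -0.05, -0.04 and -0.39, where TCF7 was at -1.77, -5.55 and -1.36. Of its 10 neighbours, 7 differed less than 2-fold in all 3 lines, and CDKL3 was at -4.04 in EBC-CR1. LEF1 on chromosome 4 had 9 of 10 neighbours at less than 2-fold in all 3 lines, with HADH at -0.29, 0.26 and -0.19 and RPL34 at 0.09, 0.40 and 0.90. DNA was not measured.

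**Figure D3:**
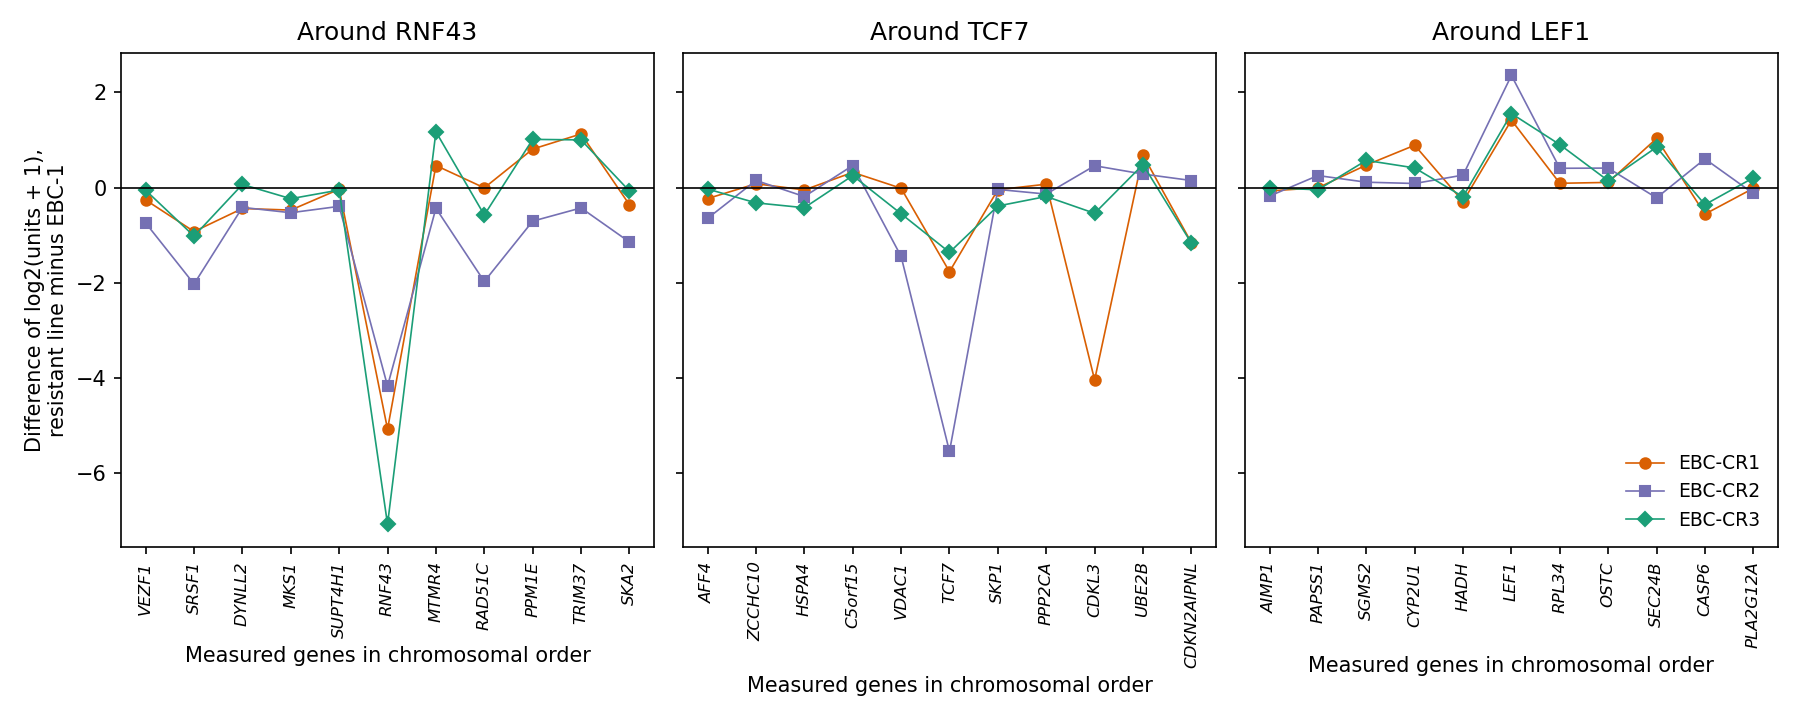
Difference of log2(normalized units + 1), resistant line minus EBC-1, for RNF43, TCF7 and LEF1 and for the 5 nearest measured genes on each side in chromosomal order. RNF43 lies at -5.08 (EBC-CR1), -4.17 (EBC-CR2) and -7.08 (EBC-CR3), below every neighbour shown.

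By the size of their 3 differences, the genes most like RNF43 were FSIP2, GPX3 and NOX5, with root mean square differences of 0.30, 0.93 and 0.93 on the log2 scale over the 3 lines. FSIP2 was at 2.00, 3.46 and 0 in the resistant lines against 7.12 in EBC-1. Like RNF43, all 3 genes were listed at 0 in EBC-CR3, where the difference equals the EBC-1 level. Their likeness is thus in part one of EBC-1 levels. The genes most like TCF7 were LINC00941, C9orf64 and IGSF10, with root mean square differences of 0.18, 0.48 and 0.54. LINC00941 was at 4.54, 0.81 and 4.73 against 6.12. IGSF10 was listed at 0 in EBC-CR2, so its difference there also equals its EBC-1 level.

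The rest of the WNT pathway was described with 7 lists holding 107 genes beside the 10, of which 71 passed the floor. At least 2-fold higher than in EBC-1 were 18 (EBC-CR1), 16 (EBC-CR2) and 21 (EBC-CR3) of these, beside 13.6%, 16.9% and 16.1% of all genes. At least 2-fold lower were 7, 12 and 10, beside 14.3%, 18.4% and 16.4% of all genes. Those past 2-fold in every resistant line were 14 higher and 4 lower genes, beside 6.79% and 5.33% of all genes, shares that also stand beside the counts of each list below. The 4 lower genes of 71, and the lower counts in EBC-CR2 and EBC-CR3, were close to the share over all genes. Of the 14 higher genes, WNT4, WNT5B, WNT10A, WNT11, TRABD2B and KREMEN1 passed the floor only through resistant lines. Of the 4 lower genes, TBX3 passed it only through EBC-1. The counts, here and for each list, thus describe the genes and are not support for a pattern among them. The median log2 differences of the 71 genes were 0.22, -0.02 and 0.19. By limma with Benjamini-Hochberg adjustment 0 of the 71 passed, with a lowest adjusted p of 0.187.

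Among the WNT ligands and secretion genes, 11 of 21 passed the floor, and 5 were higher and 0 lower in all 3 lines, beside 6.79% and 5.33% of all genes. WNT4 was at 5.21 (EBC-CR1), 6.80 (EBC-CR2) and 5.70 (EBC-CR3) against 0.81 in EBC-1, which is 31, 89 and 54 reads against 1. WNT7B was at 9.65, 10.66 and 9.62 against 8.45. WNT5B was at 4.74, 3.61 and 3.91 and WNT10A at 3.61, 3.61 and 5.15 in the resistant lines, and EBC-1 had no reads of either gene. WNT11 was the fifth, at 5, 13 and 13 reads against 2, and its interval included 0 in EBC-CR1 (log2 ratio 1.65, -0.96 to 5.04).

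Among the receptors, 12 of 16 passed the floor and 1 was higher in all 3 lines. FZD2, a Frizzled receptor, was at 9.18, 8.97 and 8.91 in the resistant lines against 7.05 in EBC-1, with log2 ratios of 2.13 (95% counting interval 1.89 to 2.39), 1.92 (1.67 to 2.19) and 1.86 (1.61 to 2.12). The coreceptor LRP6 was at 8.83, 7.78 and 9.18 against 7.91, at least 2-fold higher in EBC-CR3 alone.

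Of the secreted or surface inhibitors, 6 of 18 passed the floor, with 3 higher and 1 lower in all 3 lines. SFRP1, a secreted decoy that binds WNT proteins, was at 5.26 (EBC-CR1), 3.95 (EBC-CR2) and 5.10 (EBC-CR3) against 9.02 in EBC-1, or 13.9-fold, 35.7-fold and 15.6-fold lower. Its limma adjusted p was 0.187. KREMEN2 and KREMEN1, receptors that work with DKK1, were at 9.52, 9.42 and 9.64 against 8.13 and at 4.27, 6.53 and 4.58 against 3.17. The KREMEN1 interval included 0 in EBC-CR1 (log2 ratio 1.19, -0.08 to 2.55). TRABD2B, a protease that acts on WNT proteins, was at 3.32, 3.46 and 3.39 and listed at 0 in EBC-1. The R-spondin list had 4 of 9 genes past the floor, and RNF43 and RSPO1 were lower in all 3 lines.

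The nuclear list, which holds TCF7 and LEF1, passed the floor with 15 of 15 genes, of which 4 were higher and 2 lower in all 3 lines. The higher ones were LEF1 and the TLE corepressors TLE1, TLE2 and TLE4. TLE4 was at 11.38 (EBC-CR1), 8.81 (EBC-CR2) and 11.50 (EBC-CR3) against 7.34 in EBC-1. TLE1 was at 12.37, 11.73 and 12.76 against 10.11, and TLE2 at 8.56, 9.27 and 8.67 against 6.49. The lower ones were TCF7 and, named after its values were seen, CTNNBIP1, an inhibitor of the binding of beta-catenin to TCF factors, at 11.50, 11.71 and 11.45 against 12.84. TLE3, the other TLE gene of the list and also named after its values were seen, was at 13.29, 13.49 and 13.50 against 13.81. It was thus lower in each resistant line, by less than 2-fold. CTNNB1, the beta-catenin gene, was at 12.91, 13.78 and 13.04 against 13.14, and TCF7L2 at 12.20, 12.20 and 12.17 against 11.99. TCF7L1 was at 3.17, 4.55 and 3.91 against 3.29, and was at least 2-fold higher in EBC-CR2 alone (log2 ratio 1.36, 95% counting interval 0.20 to 2.62).

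In the cytoplasmic list 16 of 19 genes passed the floor, and 1 of them, NKD1, was higher by at least 2-fold in each resistant line. APC was at 10.11 (EBC-CR1), 9.40 (EBC-CR2) and 10.01 (EBC-CR3) against 9.65 in EBC-1, and GSK3B at 10.57, 10.26 and 10.45 against 10.25.

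Of 18 other genes described as targets of beta-catenin, 13 passed the floor, with 2 higher and 1 lower in all 3 lines. CD44, an adhesion receptor, was at 14.17 (EBC-CR1), 13.63 (EBC-CR2) and 13.98 (EBC-CR3) against 12.60 in EBC-1, and ZNF703 had log2 differences of 1.82, 1.69 and 1.42 in the same order of lines. TBX3, a T-box factor, had 0, 2 and 0 reads against 49. MYC was at 10.52, 8.58 and 9.53 against 8.19, at least 2-fold higher in EBC-CR1 and EBC-CR3. CCND1, the cyclin D1 gene, was at 10.42, 11.30 and 10.37 against 11.60 in EBC-1, at least 2-fold lower in the same lines.

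**Figure D4:**
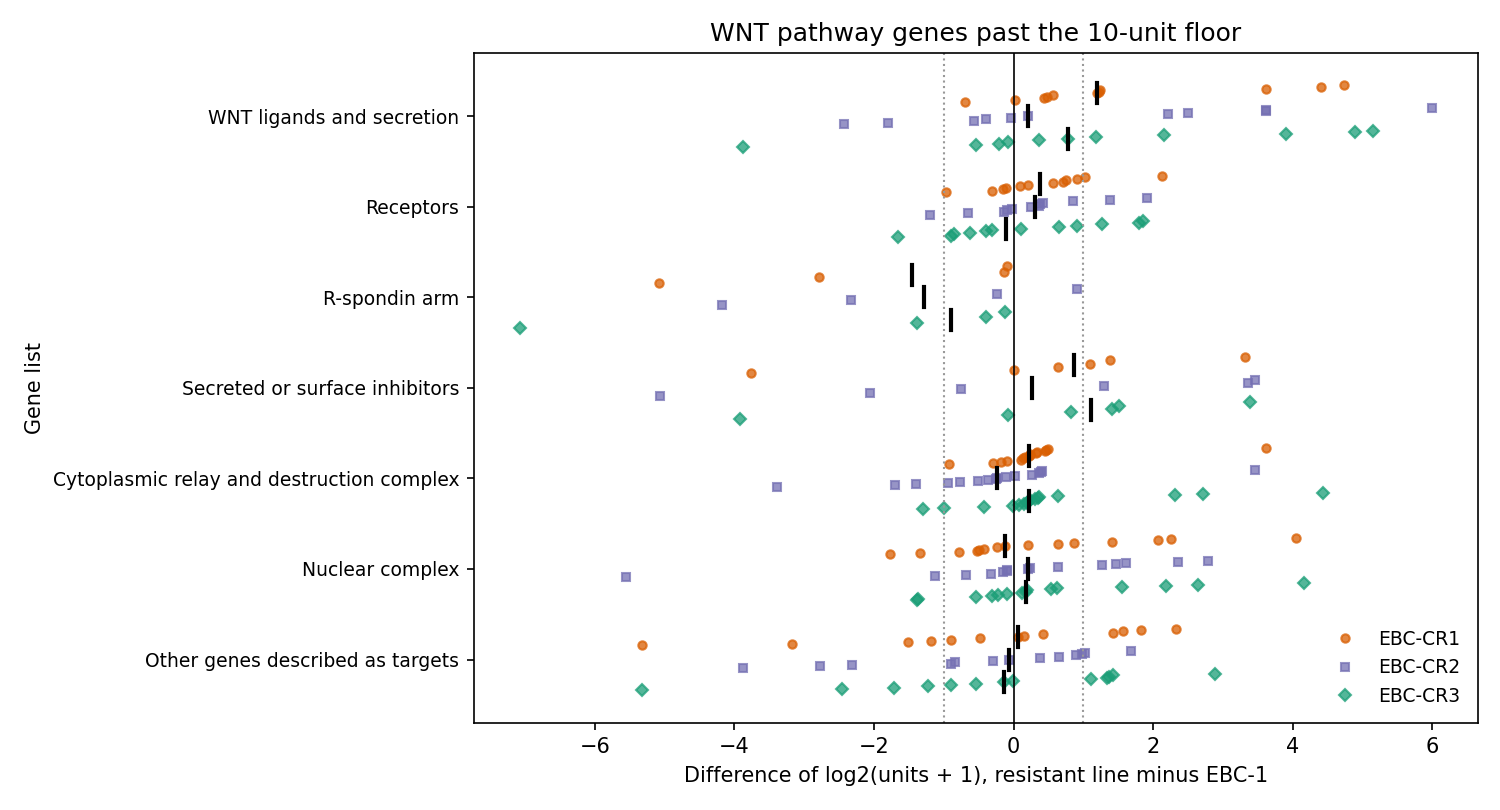
Difference of log2(normalized units + 1), resistant line minus EBC-1, for the genes of 7 WNT pathway lists that passed the floor of 10 units, with 1 point per gene and line and a black bar at the median. Dotted lines mark 2-fold. Points lie on both sides of 0 in every list, and the R-spondin list of 4 genes holds RNF43 at its lower end.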

How the data were processed

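Libraries of 4 cultures were prepared with Lexogen QuantSeq reagents, which read the 3′ end of transcripts, per the labels' protocols. The submitters' processing notes name Bowtie2, edgeR and hg19 and give no version, role or order. The sources used here do not state strand handling or the annotation counted. The authors' deposited values are log2 values per gene symbol. After undoing log2(x + 1), 100% of values below 500 units lay within 0.0025 units of a multiple of 0.25, and each library totalled 25.0 M units, a form that quantile normalization of 4 count tables gives. This is inferred from the values, is not stated by the authors, and would hide a global difference in RNA.

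Reads were recovered as the order of a library's distinct values while each value was shared by at least 10 genes on average over 21 neighbouring values, up to 238, 268, 284 and 199 reads (EBC-CR1, EBC-CR2, EBC-CR3, EBC-1). Above that, units were divided by the worth of 1 read (1.17, 1.36, 1.10 and 0.682 units). The mean estimated depth was 24.8 M reads. Intervals are exact binomial at 95%, made from these reads, centred on the deposited ratio, and cover counting error only.

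Differences between 2 libraries are of log2(x + 1), called at 2-fold without a p-value, for genes reaching 10 units in at least 1 library. Differences of low genes are understated on this scale. Ratios with intervals are of units, without the pseudocount of 1. The phenotype was tested with limma 3.58.1 under R 4.3.3, with a variance trend and with Benjamini-Hochberg adjustment at 0.05. All else used Python 3.11.15, with scipy 1.17.1, numpy 2.4.6 and pandas 2.3.3, and figures used matplotlib 3.10.9. The scripts were tested on simulated data. Members, lists and tests were chosen with earlier results of these data known. Genes named beside the 10 were up to 5 per list, those with the largest smallest difference among genes past 2-fold in 1 direction in every resistant line, plus 9 pathway genes whatever their values, and the 3 genes most like each of the 2 members with the widest range.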

Additional observations from a re-analysis of the deposited data

Results flagged for a closer look

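DKK1 was the 1 gene of the 10 whose resistant lines lay on opposite sides of EBC-1 with counting intervals that excluded 0. Its log2 difference was 0.64 in EBC-CR1 and -2.06 in EBC-CR2. With 1 library per line the difference between these effects was not tested over replicates.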

How the results depend on the processing

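None of the alternatives run turned the direction of a difference of at least 2-fold in the 7 genes past the floor. With a pseudocount of 5 units, 0 of the 7 genes differed at least 2-fold between EBC-CR3 and EBC-CR1 (1 in the values given above), and 3 between EBC-CR3 and EBC-CR2 (4 above), where the log2 difference of SP5 was 0.89 in place of 1.63. Under it 6 of 42 single differences, all of NKD1 or RNF43 where a library was at 0, moved by more than their allowance. The counts under these alternatives have no share over all genes beside them, so they only describe the genes. Without a floor all 10 genes entered, and AXIN2 and NOTUM brought the higher genes to 4 in EBC-CR1 and 4 in EBC-CR3. Then 5 genes differed between EBC-CR2 and EBC-CR1 and 6 between EBC-CR3 and EBC-CR2. With a floor of 50 units NKD1 and SP5 dropped out, leaving 5 genes, of which 1 was higher in each line and 1 in all 3. Lower were 2 (EBC-CR1), 3 (EBC-CR2) and 2 (EBC-CR3), and 2 in all 3 lines. Of the other pathway genes 6 were lower in EBC-CR3 (10 above). With reads recovered by order, which gives no value to TCF7, ZNRF3 or DKK1, 2 genes were lower in EBC-CR2, 2 differed between EBC-CR3 and EBC-CR1 and 2 between EBC-CR3 and EBC-CR2. Of the other pathway genes in that range, EBC-CR1 then had 8 higher and 2 lower, EBC-CR2 had 10 higher and 4 lower, and EBC-CR3 had 10 higher and 4 lower, since fewer genes had a value. The median of all genes in that range was 0.17, 0.34 and 0.36. With estimated reads for all genes, an alternative chosen after seeing the data, 5 genes differed between EBC-CR2 and EBC-CR1 and 2 between EBC-CR3 and EBC-CR1. Leaving out each resistant line in turn left 2 genes higher and 3 lower in the remaining lines, counts that this step could not lower. Centring on the median of all genes moved none of the 42 differences. Limma called 0 of the genes under each of its 7 alternatives (lowest adjusted p between 0.183 and 0.917), with 1 to 3 at an unadjusted p under 0.05, while its calls over all genes, 27 as reported, were 0 when any 1 resistant line was left out, 0 without a trend, 428 without a floor and 54 with a floor of 50 units. No paired analysis was possible because the parental group has 1 library. Depth limits AXIN2, NOTUM, LGR5 and the levels of RNF43 and SP5 in the resistant lines.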

Other observations

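Some pathway genes, chosen after their values were seen, differed at least 2-fold between resistant lines. TNIK, a kinase that works with TCF7L2, was at 4.27 (EBC-CR1), 3.46 (EBC-CR2) and 8.66 (EBC-CR3) against 5.77 in EBC-1. DACT1, which binds Dishevelled, was at 3.88, 0 and 5.70 against 3.39, from 12, 0 and 54 reads against 11. Its relative DACT3 was at 3.32, 1.46 and 5.57 against 2.86, from 8, 2 and 49 reads against 7. WNT7A was at 4.36, 1.46 and 0 against 3.88, from 17, 2 and 0 reads against 16.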
